A study of Mus musculus with 12 samples.

Results

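Levels of 8 genes for secreted proteins were followed in the rectum of mice with and without colitis and with and without berberine (BBR), a plant alkaloid given by gavage. The genes are Angptl1, Angptl2, Angptl4 and Angptl7 of the angiopoietin-like family and C1qtnf1, C1qtnf2, C1qtnf3 and C1qtnf7 of the C1q/TNF-related family. They were 8 of the 17734 genes in the table. They were chosen by their levels in colitis mice against normal mice, where C1qtnf3 and Angptl7 are among the genes with the largest falls, so that contrast is given as a description, with no test. RNA was sequenced from 12 adult male C57BL/6 mice, and each of 4 groups held 3 of them: normal mice, normal mice receiving BBR, colitis mice, and colitis mice receiving BBR. The colitis groups drank dextran sulfate sodium (DSS), which damages the gut epithelium, for 7 days, and the treatment protocol of the labels gives 6 days of BBR. Normal mice received water. No group carried a transgene or a deletion, and DSS colitis is a chemical injury of the epithelium and not a genetic model.

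Angiopoietin-like proteins are secreted glycoproteins with a coiled-coil stretch and a fibrinogen-like domain, built like the angiopoietins but without binding to the Tie receptors of the endothelium. ANGPTL4 inhibits lipoprotein lipase and is induced by PPAR transcription factors and by low oxygen. ANGPTL2 signals through integrins and in the gut is made by fibroblasts beneath the epithelium, ANGPTL7 is a matrix-associated protein best known from the eye, and ANGPTL1 restrains the growth of blood vessels. C1q/TNF-related proteins (CTRPs) carry a collagen-like stretch and a globular C1q domain and are relatives of adiponectin, the hormone of fat cells. CTRP3, the product of C1qtnf3, is made by cartilage, fat and connective tissue and dampens inflammation. CTRP1 is known for effects on blood vessels and platelets, and CTRP2 and CTRP7 are close relatives of each other.

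Angptl1, Angptl2 and Angptl7 share an arrangement in the genome. In the GENCODE annotation of GRCm38, Angptl1 lies on chromosome 1 from 156838562 to 156861078 within Ralgps2, Angptl2 on chromosome 2 from 33216069 to 33247717 within Ralgps1, and Angptl7 on chromosome 4 from 148495183 to 148500460 within Mtor. Each lies on the opposite strand of its host gene and shares 0 exonic bases with it, so that it sits in the host's introns. The other members overlap no other protein-coding gene: Angptl4 on chromosome 17, C1qtnf1 and C1qtnf2 on chromosome 11, C1qtnf3 on chromosome 15 and C1qtnf7 on chromosome 5. The host genes were measured in the same mice. Mtor was at 7.25 ± 0.57 FPKM in normal mice and 5.71 ± 1.2 in colitis mice (SD, n = 3), and Ralgps2 at 10.3 ± 1.6 and 9.62 ± 1.49. Ralgps1 was at 2.40 ± 0.20 and 1.33 ± 0.53. FPKM is a read number scaled for transcript length and sequencing depth, so levels may be compared between genes.

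Promoter windows from 250 bases before to 50 after the start of transcription were taken from RefSeq (GRCm38.p6), which matched 6 of the 8 genes, without Angptl4 and C1qtnf1. The windows of the members with the largest falls in colitis mice are shown, 5′ to 3′ on the strand of the gene, with capitals for the motif matches. C1qtnf3 lies at chr15:10952082-10952381 on the plus strand, Angptl7 at chr4:148500413-148500712 on the minus strand and Angptl2 at chr2:33215711-33216010 on the plus strand.
C1qtnf3: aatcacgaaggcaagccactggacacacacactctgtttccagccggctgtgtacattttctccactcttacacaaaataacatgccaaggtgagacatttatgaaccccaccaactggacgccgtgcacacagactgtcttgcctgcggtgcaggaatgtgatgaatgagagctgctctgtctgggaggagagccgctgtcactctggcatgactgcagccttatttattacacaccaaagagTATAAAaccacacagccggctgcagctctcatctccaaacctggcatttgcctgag
Angptl7: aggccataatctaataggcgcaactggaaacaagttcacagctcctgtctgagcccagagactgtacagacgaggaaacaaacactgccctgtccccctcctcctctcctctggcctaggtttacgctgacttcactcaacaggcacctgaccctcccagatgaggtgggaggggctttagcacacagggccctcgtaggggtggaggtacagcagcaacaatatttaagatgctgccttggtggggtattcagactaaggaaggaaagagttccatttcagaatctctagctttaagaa
Angptl2: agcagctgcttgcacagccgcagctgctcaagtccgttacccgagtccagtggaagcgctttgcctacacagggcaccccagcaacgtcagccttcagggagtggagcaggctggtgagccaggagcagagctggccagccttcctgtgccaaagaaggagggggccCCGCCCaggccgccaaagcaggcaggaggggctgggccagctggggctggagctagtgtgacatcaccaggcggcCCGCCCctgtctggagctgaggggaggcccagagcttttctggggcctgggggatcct
Both strands were searched for the TATA box with the letters TATAAA, the E-box with the letters CACGTG, the GC box with the letters GGGCGG, the AP-1 motif with the letters TGANTCA, the STAT motif with the letters TTCNNNGAA and the CArG box of smooth muscle genes. The capitals in C1qtnf3 mark TATAAA at bases 245 to 250, an offset of −6 that ends just before the annotated start of transcription. Whether these letters work as a TATA box was not tested. The capitals in Angptl2 mark 2 GC boxes, read as CCGCCC, at bases 168 to 173 and 243 to 248. Angptl7 held none of these letters. In the windows not shown, C1qtnf2 held an E-box and a GC box, C1qtnf7 held a STAT motif and Angptl1 none. Of all 32851 windows of this length, 13.6% held the TATA box, 35.7% the GC box, 7.15% the E-box, 8.3% the STAT motif, 7.81% the AP-1 motif and 1.63% the CArG box. No motif was shared by the windows of C1qtnf3, Angptl7 and Angptl2, and the motifs searched do not overlap in them.

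Libraries that stood apart are named first. The mice numbered 4, with 1 in each group, had column totals of 482194 to 504337 FPKM and 872 to 1086 genes at 0, against totals of 696286 to 765876 and 1332 to 1926 genes at 0 in the 8 mice numbered 1 to 3. Mouse 4 of the colitis mice receiving BBR also differed from its group in the markers of inflammation and muscle. S100a8, a subunit of the neutrophil protein calprotectin, was at 0.31 FPKM in it, at 118 and 148 FPKM in the other two, at 24.9 to 336 in colitis mice and at 0 in all 6 mice without DSS. The summed level of 10 smooth muscle markers was 3656 FPKM in it and 504 and 523 in the other two. The tests of the 8 genes and of the gene lists are therefore given without this mouse too. The values are not counts, and how many reads stood behind them was estimated from the spacing of low values. The worth of 3 reads was between 0.0396 and 0.219 FPKM over the 8 genes and 12 mice, which covers counting error only. Where a sentence gives 3 values for a group, they follow the mouse numbers: 1, 3 and 4 for normal mice with or without BBR, 1, 2 and 4 for colitis mice, and 2, 3 and 4 for those also receiving BBR.

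C1qtnf3 had the lowest level in mice with DSS relative to mice without. It was at 6.32, 9.42 and 6.49 FPKM in normal mice, at 5.92, 5.03 and 8.36 in normal mice receiving BBR, at 0.12, 0.06 and 0.66 in colitis mice, and at 0.38, 0.16 and 1.31 in colitis mice receiving BBR. All 6 mice with DSS lay below all 6 without, and in both DSS groups mouse 4 was the highest. The share of all genes separated in this way was not counted, and the colitis and normal mice were used in the choice. Between colitis and normal mice, 22.2% of all genes were lower without overlap. Between the groups receiving BBR, 18.0% were. The group means were 7.41 ± 1.74, 6.44 ± 1.72, 0.28 ± 0.33 and 0.617 ± 0.610 FPKM in the same order (SD, n = 3). The 3 values in colitis mice were worth about 3.8, 2.0 and 29.9 reads, so the size of the fall in the first 2 of these mice is limited by depth.

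Angptl7 lay below every normal mouse in all colitis mice, but not in all colitis mice receiving BBR. It was at 5.87, 13.11 and 8.78 FPKM in normal mice and at 7.64, 6.85 and 15.80 in normal mice receiving BBR. It was at 0.07, 0.78 and 0.38 in colitis mice, worth about 2.0, 24.2 and 15.9 reads. With BBR, the colitis mice had 1.81, 0.44 and 10.23 FPKM. The last value belongs to mouse 4 and lies within the range of the normal mice, while the other two lie below every mouse without DSS.

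Angptl2 had the highest mean of the 8 genes in normal mice, 10.7 ± 3.7 FPKM, and 10.2 ± 2.3 in normal mice receiving BBR (SD, n = 3). Angptl2 was at 9.70, 7.67 and 14.81 in normal mice and at 7.73, 10.63 and 12.29 in normal mice receiving BBR. With DSS, it was at 0.93, 2.14 and 3.22 in colitis mice and at 1.49, 1.46 and 6.24 in those receiving BBR. All 6 mice with DSS were below all 6 without, again with no share of all genes counted. The nearest value was again that of mouse 4 receiving BBR. Angptl1 was a low gene throughout, at 0.64, 0.48 and 1.12 FPKM in normal mice and 0.59, 0.63 and 1.52 in normal mice receiving BBR. It was at 0.14, 0.06 and 0.09 in colitis mice and at 0.03, 0.07 and 0.54 in colitis mice receiving BBR. Apart from the 0.54 of mouse 4, worth about 25.3 reads, these DSS values were worth 1.1 to 5.1 reads, so Angptl1 lay near the limit of detection in these mice.

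The remaining C1q/TNF-related genes had smaller differences. Their groups with and without DSS overlapped, except for C1qtnf7 in colitis mice against normal mice. C1qtnf1 was at 2.03, 1.42 and 3.52 FPKM in normal mice and at 1.35, 1.73 and 2.42 in normal mice receiving BBR. With DSS, it was at 0.57, 1.60 and 1.47 in colitis mice and at 0.31, 0.67 and 1.52 in those receiving BBR. C1qtnf1 thus spread over overlapping ranges, with mouse 4 highest in both normal groups. C1qtnf2 was at 3.81, 1.61 and 4.66 in normal mice and at 1.51, 3.79 and 5.26 in normal mice receiving BBR. With DSS, it was at 0.62, 1.80 and 1.27 in colitis mice and at 1.21, 0.77 and 2.37 in those receiving BBR. In C1qtnf2 the lowest mouse of each normal group lay within the range of the mice with DSS. C1qtnf7 was at 1.93, 1.46 and 2.77 in normal mice and at 1.34, 2.75 and 3.54 in normal mice receiving BBR. With DSS, it was at 0.77, 1.27 and 1.12 in colitis mice and at 0.93, 0.98 and 1.43 in those receiving BBR. In each of these genes the lowest mouse was a mouse with DSS, but only C1qtnf7 had all colitis mice below all normal mice.

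Angptl4, the lipase inhibitor, had its highest mean in colitis mice. It was at 0.44, 2.0 and 2.35 FPKM in normal mice and at 0.82, 0.12 and 0.55 in normal mice receiving BBR. With DSS, it was at 1.87, 5.63 and 1.73 in colitis mice and at 1.22, 1.89 and 0.74 in those receiving BBR. Its means of 1.60 ± 1.02, 0.497 ± 0.353, 3.08 ± 2.21 and 1.28 ± 0.58 (SD, n = 3) had spreads of the size of most of their differences, and the groups of each compared pair overlapped. The plot of levels by mouse shows the 8 genes side by side.

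**Figure D1:**
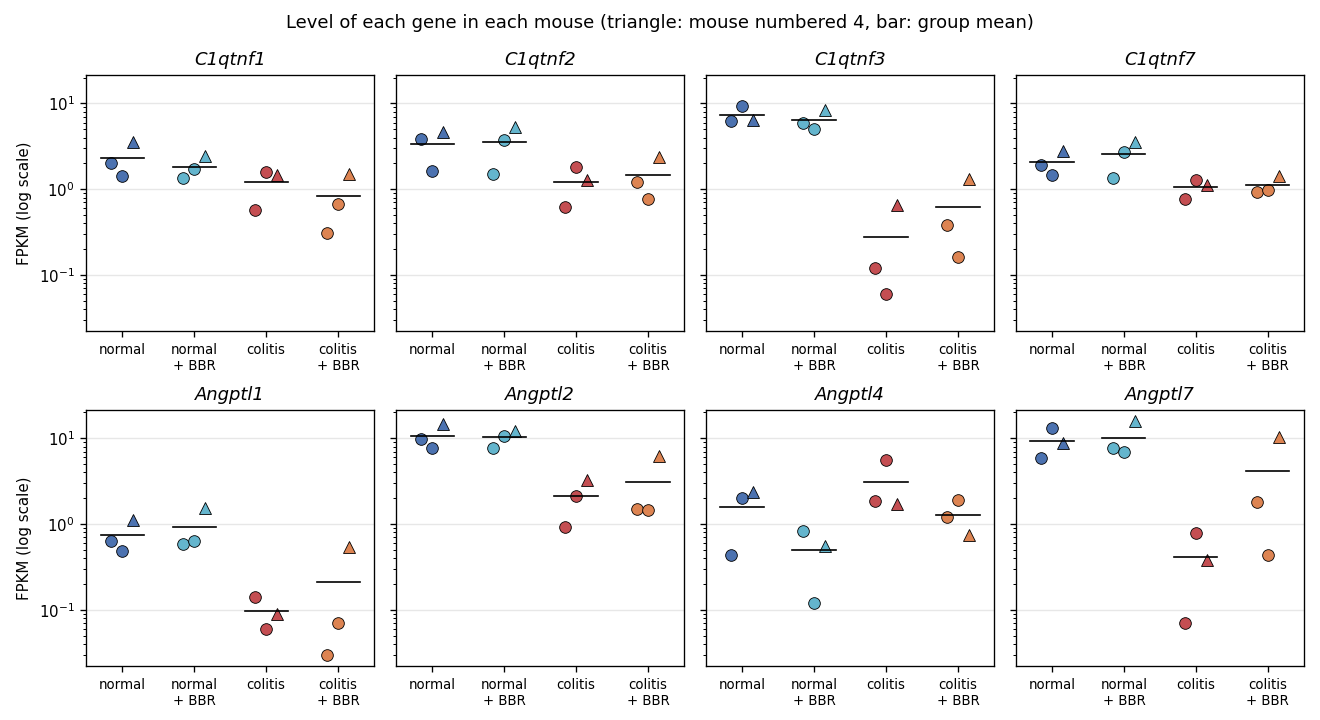
Level of each gene (FPKM, log axis) in each of the 12 mice, with 1 panel per gene, 1 point per mouse, triangles for the mice numbered 4 and a bar for the group mean of 3 mice. C1qtnf3 and Angptl2 lie lower in all 6 mice with DSS than in the 6 without, a separation not counted over all genes. Angptl7 of mouse 4 of the colitis mice receiving BBR lies at 10.23 FPKM among the mice without DSS. Angptl4 is the gene whose colitis mean lies above its normal mean.

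The contrast that chose the genes did not use the 6 mice receiving BBR. The genes were therefore tested in colitis mice receiving BBR against normal mice receiving BBR. Both the genes and this comparison were set with earlier results of these data known, so the test is not free of the choice. C1qtnf3 was lower in colitis mice receiving BBR by a log2 change of −3.51 ± 0.65 (SE, on the log2(FPKM + 0.1) scale), with the 3 mice below the other 3. limma, fitted to all 15315 genes with a mean of at least 0.1 FPKM, gave it a Benjamini-Hochberg adjusted p = 0.117. The log2 change was −2.11 ± 0.90 for Angptl7, −2.02 ± 0.56 for Angptl2 and −1.95 ± 0.59 for Angptl1, with limma's adjusted p of 0.244, 0.214 and 0.215. It was −1.24 ± 0.55 for C1qtnf1, −1.19 ± 0.58 for C1qtnf2 and −1.04 ± 0.40 for C1qtnf7, with adjusted p between 0.222 and 0.269. Angptl4 had a log2 change of 1.36 ± 0.71 (limma adjusted p = 0.286). The sizes depended on the pseudocount: with 1 in place of 0.1, C1qtnf3 was at −2.24 and past the adjusted limit (limma adjusted p = 0.0300), Angptl1 at −0.65, C1qtnf1 at −0.66 and Angptl4 at 0.61, and with 0.01 Angptl1 was at −2.79.

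None of the 8 genes passed the adjusted limit of 0.05 in this comparison, where limma called 6 of all 15315 genes (0.0392%). At an unadjusted P up to 0.05, 6 of the 8 were lower, against 17.3% of all genes. The groups did not overlap for 3 of the 8, C1qtnf3, Angptl1 and Angptl2, against 18.0% of all genes that were lower without overlap. The median log2 change of the 8 was −1.59 and that of all genes was −0.40, and 7 of the 8 were lower, as were 80.1% of all genes. The general shift depends on scaling: after quantile normalization the median of all genes was −0.03 and that of the 8 genes was −1.11, with 7 of 8 lower. C1qtnf1, C1qtnf2 and C1qtnf7 were then at −0.70, −0.69 and −0.51, with limma's adjusted p of 0.468, 0.591 and 0.502. For 3 mice against 3, the smallest p of an exact permutation test, two-sided, is 0.1, which C1qtnf3, Angptl1 and Angptl2 reached.

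The calls in this comparison changed with the mice numbered 4. Without mouse 4 of the colitis mice receiving BBR, 5 genes passed limma's adjusted limit as lower (13.1% of all genes did): C1qtnf3 at −4.18 (adjusted p = 0.0073), Angptl2 at −2.69 (0.0136), Angptl1 at −2.65 (0.0166), Angptl7 at −3.22 (0.0257) and C1qtnf1 at −1.75 (0.0479). C1qtnf2 at −1.59, C1qtnf7 at −1.22 and Angptl4 at 1.67 did not pass (limma adjusted p of 0.0852, 0.071 and 0.138). Other mice moved values the other way: Angptl7 was at −1.10 without mouse 3 of the colitis mice receiving BBR (limma adjusted p = 0.589), C1qtnf1 at −0.75 without mouse 2 (limma adjusted p = 0.548) and Angptl4 at 0.75 without mouse 3 of the normal mice receiving BBR (limma adjusted p = 0.621). With a block for the mice numbered 4, 3 genes passed, C1qtnf3, Angptl2 and Angptl1, with limma's adjusted p of 0.0217, 0.0441 and 0.0470 (1.40% of all genes were lower at that limit). The same 3 passed in the mice numbered 1 to 3 alone, where 13.5% of all genes did. Between the mice numbered 4, 1 against 1 and so with no test, C1qtnf3 was lower by −2.59 on the log2 scale, Angptl2 by −0.97 and Angptl7 by −0.62. In the mice numbered 1 to 3 the values were −3.98, −2.54 and −2.85.

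In colitis mice against normal mice, the contrast that chose the genes, the log2 change was −4.63 for C1qtnf3 and −4.42 for Angptl7. It was −2.40 for Angptl2, −2.06 for Angptl1, −1.36 for C1qtnf2, −0.90 for C1qtnf1, −0.88 for C1qtnf7 and 0.97 for Angptl4. As a description of that choice and not a test of the genes, C1qtnf3 and Angptl7, 2 of the 8, lay beyond the adjusted limit as lower, where 0.424% of all genes lay, and 5 of the 8 were lower without overlap, where 22.2% of all genes were. The count of 2 was 0 to 1 when each mouse was left out and 1 with a pseudocount of 1 or 0.01, a mean of at least 1, no filter or no trend, and it was 3 to 4 under the other alternatives. The median of the 8 was −1.71 and that of all genes −0.32. Angptl4 was at 0.28 without normal mouse 1 and at 0.43 without colitis mouse 2, and C1qtnf1 at −0.57 without normal mouse 4 and at −0.475 without colitis mouse 1. Between the mice numbered 4 and the mice numbered 1 to 3, the change of Angptl7 was of like size, −4.21 and −4.52, while that of C1qtnf3 was −3.12 and −5.38, and Angptl4 was at −0.42 and 1.66.

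**Figure D2:**
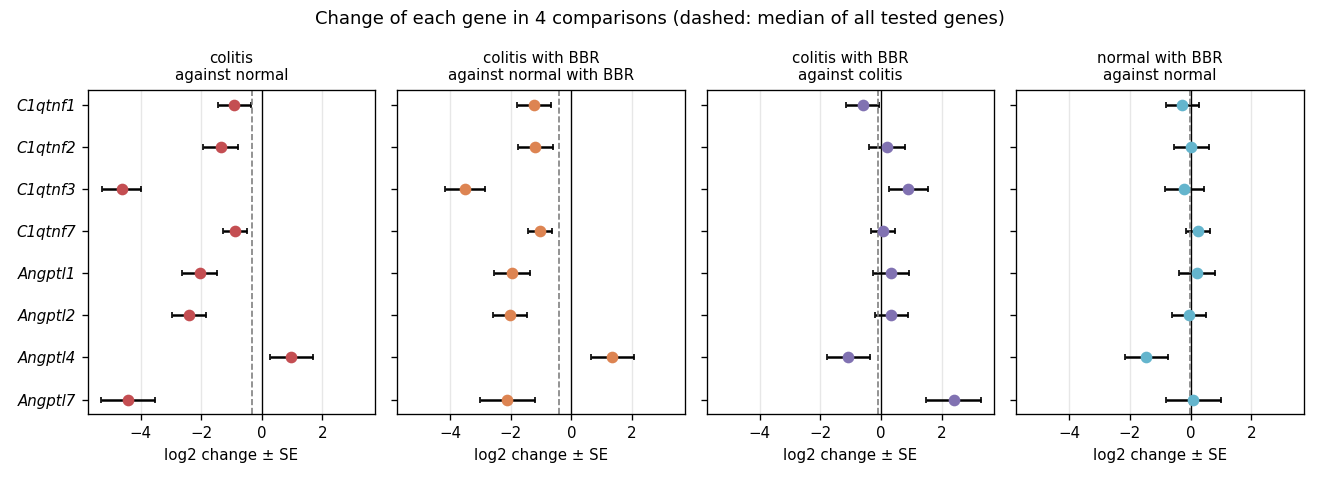
Log2 change of each gene in 4 comparisons, on the log2(FPKM + 0.1) scale, with bars of 1 SE from limma and a dashed line at the median of all 15315 tested genes. C1qtnf3 is the lowest point in both comparisons of DSS with no DSS, at −4.63 and −3.51, and Angptl7 is the highest point in colitis mice receiving BBR against colitis mice, at 2.40.

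BBR given to colitis mice changed none of the 8 genes past the adjusted limit. The comparison shares the colitis mice with the contrast that chose the genes. Angptl7 was at 4.16 ± 5.30 FPKM with BBR and 0.41 ± 0.36 without (SD, n = 3), a log2 change of 2.40 ± 0.90 (limma adjusted p = 0.638), and its groups overlapped. limma called 0 of all genes (0.00%) in this comparison, and Angptl7 was the 1 gene of the 8 with an unadjusted P up to 0.05, as were 6.39% of all genes. Its log2 change was 1.39 in the mice numbered 1 to 3 and 4.43 between the mice numbered 4, and without mouse 4 of the colitis mice receiving BBR it was 1.29 (limma adjusted p = 0.531). C1qtnf3 had a log2 change of 0.91 ± 0.65, with a 95% interval from −0.51 to 2.32, and 0.24 without that mouse. Angptl4 had a change of −1.08 ± 0.71, with an interval from −2.62 to 0.47 (limma adjusted p = 0.964), and −0.54 without colitis mouse 2. The other 5 genes lay between −0.60 and 0.35. The lowest of these, C1qtnf1, was at −1.11 without mouse 4 of the colitis mice receiving BBR and at −0.12 without mouse 2 of that group, and the direction of Angptl1, Angptl2, C1qtnf2 and C1qtnf7 turned when mouse 4 of the colitis mice receiving BBR was left out.

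BBR given to normal mice likewise changed none of the 8 past the adjusted limit, and shares the normal mice with the contrast that chose the genes. limma called 0 of all genes (0.00%), and at an unadjusted P up to 0.05 it had 0 of the 8 and 1.36% of all genes. Angptl4 was at 0.497 ± 0.353 FPKM with BBR and 1.60 ± 1.02 without (SD, n = 3), a log2 change of −1.47 ± 0.71 with a 95% interval from −3.01 to 0.08 (limma adjusted p = 1). Between mice of the same number it was higher with BBR in mouse 1, at 0.82 against 0.44 FPKM, and lower in mouse 3, at 0.12 against 2.0, and mouse 4, at 0.55 against 2.35. When each mouse was left out it ranged from −2.16 to −0.86, the smallest change being that without mouse 3 of the normal mice receiving BBR. The other 7 genes lay between −0.27 and 0.24. For C1qtnf3 the interval ran from −1.62 to 1.21 and for Angptl7 from −1.88 to 2.07. Changes of 1 on the log2 scale in either direction were thus not excluded. The change with BBR was larger in colitis mice than in normal mice by 2.31 on the log2 scale for Angptl7 and by 1.11 for C1qtnf3, and this difference was not tested. Without mouse 4 of the colitis mice receiving BBR these differences were 1.19 and 0.45.

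The source of the RNA bears on these levels, because in bulk tissue fewer cells of a type and less RNA per cell cannot be told apart. The tissue was epithelial in every mouse: 9 epithelial markers summed to 9648 to 17561 FPKM, with Epcam between 780 and 1201. The 10 smooth muscle markers, all of them detected, summed to 1716 to 3305 FPKM in normal mice, 2417 to 5239 in normal mice receiving BBR, 91.4 to 725 in colitis mice and 504 to 3656 in colitis mice receiving BBR. The 13 fibroblast markers summed to 357 to 597, 402 to 753, 216 to 827 and 212 to 324 FPKM in the same order. The 7 endothelial markers summed to 25.9 to 28.7, 23.5 to 28.7, 8.33 to 22.3 and 6.97 to 17.0. All 3 lists were lower in median in colitis mice receiving BBR against normal mice receiving BBR, by −1.89, −1.16 and −1.21, with 0 of 10, 9 of 13 and 3 of 7 genes lower without overlap, where 18.0% of all genes were. Without mouse 4 of the colitis mice receiving BBR, the counts were 10 of 10, 13 of 13 and 6 of 7, where 50.0% of all genes were lower without overlap, and 7 of the 8 members were. The list medians were then −2.98, −1.41 and −1.64, and limma called 7, 3 and 4 of their genes as lower at the adjusted limit, where 13.1% of all genes were. Their part in the fall of the members was not tested.

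The values of single mice are given beside these sums. Colitis mouse 2 had the highest fibroblast sum of the 12 mice, 827 FPKM, and the lowest C1qtnf3, 0.06, with Angptl7 at 0.78. Of the 13 markers in it, 4 were above every normal mouse, among them Dcn at 407 FPKM and Col3a1 at 179, and 4 were below every normal mouse, namely Cd34 at 5.27, Mfap5 at 3.54, Pdgfrb at 2.46 and Fbln1 at 19.8. Mouse 4 of the colitis mice receiving BBR had more summed smooth muscle marker RNA, 3656 FPKM, than each normal mouse, with C1qtnf3 at 1.31, below each mouse without DSS, and Angptl7 at 10.23, among them. Ratios to the marker sums were added after seeing the data. Set against 1000 FPKM of smooth muscle markers, C1qtnf3 was 1.96 to 5.49 in normal mice, 1.6 to 2.45 in normal mice receiving BBR, 0.0873 to 1.31 in colitis mice and 0.317 to 0.726 in colitis mice receiving BBR, with all 6 mice with DSS below all 6 without. The same ratio for Angptl7 was 2.66 to 7.64, 2.25 to 3.16, 0.524 to 1.13 and 0.872 to 3.46, with overlap in the mice receiving BBR. For Angptl2 the ratios were 4.47 to 4.68, 2.35 to 3.49, 3.11 to 10.2 and 1.71 to 2.89, with no separation of the DSS groups. Set against 1000 FPKM of fibroblast markers, Angptl2 was 19.6 to 27.2 in normal mice and 2.59 to 9.33 in colitis mice, and C1qtnf3 10.9 to 24.1 and 0.0726 to 1.91. In the mice receiving BBR, Angptl2 was 16.3 to 25.2 without DSS and 6.26 to 19.3 with it, so the groups overlapped, and C1qtnf3 was 11.1 to 14.7 and 0.754 to 4.05. The fibroblast ratio of Angptl7 was 14.7 to 33.6 in normal mice and 0.324 to 1.1 in colitis mice. In the mice receiving BBR it was 16.2 to 21 without DSS and 2.07 to 31.6 with it, with overlap. The part of these cells in the levels was not tested.

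**Figure D3:**
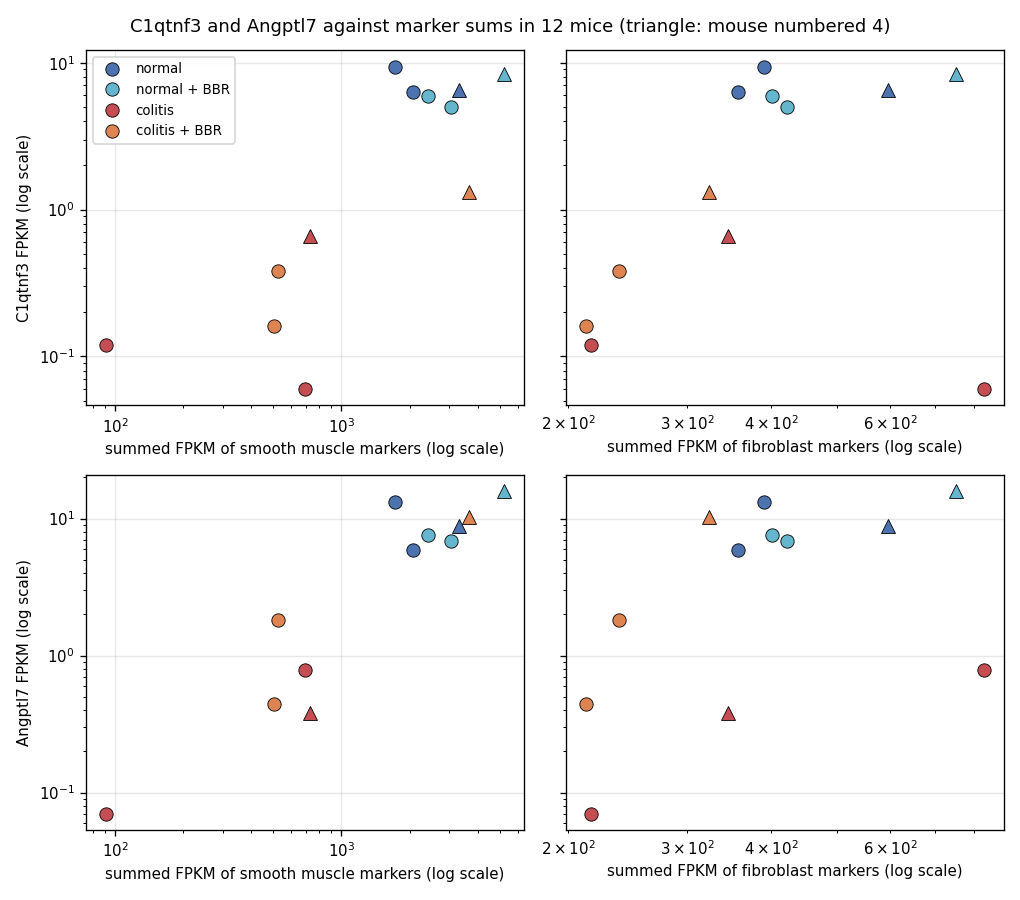
C1qtnf3 (upper panels) and Angptl7 (lower panels) in FPKM against the summed FPKM of 10 smooth muscle markers (left) and 13 fibroblast markers (right) in 12 mice, all axes logarithmic, with triangles for the mice numbered 4. Mouse 4 of the colitis mice receiving BBR, at 3656 FPKM of smooth muscle markers, lies among the mice without DSS for Angptl7 and below them for C1qtnf3, and colitis mouse 2, at 827 FPKM of fibroblast markers, is low for both genes while 4 of those 13 markers lie above and 4 below every normal mouse in it.

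Fat is another known source of CTRPs and of ANGPTL4, and adipocyte markers varied between single mice. The 8 adipocyte markers summed to 250 FPKM in normal mouse 4 and to 117, 66.3 and 8.1 in the colitis mice receiving BBR, against 3 to 11.7 in the other 8 mice. Adipoq, the adiponectin gene, was at 13.05 FPKM in normal mouse 4 and at 0 in all normal mice receiving BBR. Normal mouse 4 had the highest C1qtnf1 of the 12 mice, 3.52 FPKM, and the highest Angptl4 of the normal mice, 2.35. It was also the highest normal mouse for Angptl1, Angptl2, C1qtnf2 and C1qtnf7. Its C1qtnf3 of 6.49 and its Angptl7 of 8.78 lay between those of the other normal mice. Mice 2 and 3 of the colitis mice receiving BBR, with the next highest adipocyte sums, had C1qtnf1 at 0.31, the lowest of the 12 mice, and at 0.67. Their Angptl4 was at 1.22 and 1.89, against 0.74 in mouse 4 of that group and 1.73 to 5.63 in colitis mice. Neutrophil and monocyte markers summed to 181 to 1032 FPKM in colitis mice and 84.9 to 343 in colitis mice receiving BBR, against 88.2 to 162 in mice without DSS. Over the 12 mice, 5 mesothelial markers summed to 0.46 to 13.4 FPKM, 8 squamous epithelial markers to 1.28 to 7.64 and 6 markers of enteric neurons and glia to 5.81 to 25.8. Of the marker genes, limma called Cd34, on fibroblasts and endothelium, as lower in colitis mice than in normal mice (log2 change −1.79 ± 0.37, adjusted p = 0.0449) and S100a8 as higher (adjusted p = 0.0254), and none in the other 3 comparisons with all mice. Without mouse 4 of the colitis mice receiving BBR, it called 3 adipocyte, 1 mesothelial and 2 neutrophil and monocyte markers as higher in that group than in normal mice receiving BBR, where 1.63% of all genes were. The parts of these cells in the levels of the 8 genes were not tested.

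The other genes of the pathways were taken list by list. Of 2 tested further angiopoietin-like genes, 7 further C1q/TNF-related genes, 5 angiopoietins and Tie receptors, 8 receptors, 9 genes of the lipoprotein lipase system, 8 PPAR genes and 8 hypoxia genes, limma called none in any of the 4 comparisons at the adjusted limit with all mice. In colitis mice receiving BBR against normal mice receiving BBR, the list medians were −0.45, −0.35, −1.23, −0.59, −0.32, −0.18 and 0.29 in that order, beside −0.40 for all genes. Genes lower without overlap were 1 of 2, 2 of 7, 4 of 5, 1 of 8, 1 of 9, 0 of 8 and 0 of 8, against 18.0% of all genes. At an unadjusted P up to 0.05, genes lower were 0 of 2, 2 of 7, 3 of 5, 3 of 8, 1 of 9, 0 of 8 and 0 of 8, against 17.3% of all genes. Without mouse 4 of the colitis mice receiving BBR, limma called 0 of 2, 2 of 7, 3 of 5, 5 of 8, 1 of 9, 0 of 8 and 0 of 8 as lower at the adjusted limit, where 13.1% of all genes were. As higher it called Adipoq of the C1q/TNF-related list, 1 PPAR gene and 2 hypoxia genes, where 1.63% of all genes were. The medians were then −0.74, −0.57, −1.70, −0.88, −0.56, −0.23 and 0.57, beside −0.56 for all genes. In colitis mice receiving BBR against colitis mice, it called none of the list genes without this mouse.

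Among the relatives, C1qtnf5, a secreted C1q/TNF-related protein of the retina, was lowest in colitis mice receiving BBR, at 0.43, 0.73 and 1.01 FPKM, where the other 9 mice lay between 2.05 and 2.92. Its log2 change was −1.55 ± 0.31 against normal mice receiving BBR (limma adjusted p = 0.150) and −1.79 ± 0.31 against colitis mice (limma adjusted p = 0.281). Without mouse 4 of the colitis mice receiving BBR the change against normal mice receiving BBR was −1.80 (limma adjusted p = 0.0139). Angptl6, named after its values were seen, was at 0.85 to 1.14 FPKM in normal mice and 0.05 to 0.51 in colitis mice. Its log2 change between them was −1.93 ± 0.46 (limma adjusted p = 0.0651). Angptl6 was at 0.70 to 1.07 in colitis mice receiving BBR, a log2 change of 1.89 ± 0.46 against colitis mice (limma adjusted p = 0.438). Without mouse 4 of the colitis mice receiving BBR this change was 1.81 (limma adjusted p = 0.369). C1qtnf6 was the relative with the highest level, 16.0 to 18.2 FPKM in normal mice and 7.98 to 17.4 in colitis mice.

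Among receptors, Pirb, the mouse relative of the LILRB2 receptor for angiopoietin-like proteins on myeloid cells, was at 0.85 to 1.93 FPKM in normal mice and 3.70 to 13.44 in colitis mice, a log2 change of 2.09 ± 0.46 (limma adjusted p = 0.0533). In colitis mice receiving BBR Pirb was at 1.66 to 2.27, with no overlap with colitis mice and a log2 change of −1.63 ± 0.46 (limma adjusted p = 0.498). Cdh13, a cadherin that binds adiponectin, and Itgb3, an integrin chain, had log2 changes of −2.13 ± 0.68 and −2.14 ± 0.67 in colitis mice receiving BBR against normal mice receiving BBR (both limma adjusted p = 0.215). Tek and Tie1, the Tie receptors of endothelium, stood at −0.91 ± 0.44 and −1.23 ± 0.48 (limma adjusted p of 0.269 and 0.226). In colitis mice receiving BBR, Cdh13 was at 0.31, 0.31 and 2.97 FPKM and Itgb3 at 0.24, 0.44 and 1.91, with mouse 4 the highest in both. Without it Cdh13 stood at −3.10, Itgb3 at −2.89 and Tie1 at −1.70 (limma adjusted p of 0.0073, 0.0199 and 0.0369), and Tek at −1.14 (0.107).

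Genes around ANGPTL4 were measured in the same comparison. Gpihbp1, which holds lipoprotein lipase on capillaries, had a log2 change of −1.40 ± 0.80 and Cd36, a fatty acid transporter, −1.61 ± 0.61 (limma adjusted p of 0.317 and 0.222). Ppara stood at −1.25 ± 0.65 and Acadl, an enzyme of fatty acid oxidation, at 0.95 ± 0.23 (limma adjusted p of 0.284 and 0.196). Adm, the hypoxia-induced adrenomedullin gene, was at 34.30, 35.67 and 8.05 FPKM in colitis mice receiving BBR and at 3.95 to 5.39 in normal mice receiving BBR, a log2 change of 2.13 ± 0.53 (limma adjusted p = 0.201). Without mouse 4, the lowest of the first group, Adm stood at 2.83, Acadl at 1.24 and Cd36 at −2.14 (limma adjusted p of 0.0073, 0.00836 and 0.0412), and Gpihbp1 and Ppara did not pass (0.282 and 0.0784).

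The pattern of each gene over the 12 mice was compared with those of 11936 other genes with a mean of at least 1 FPKM, by the root mean square difference of the log2(FPKM + 0.1) values, each centred on its own mean. This is a description over mice that share groups and libraries. C1qtnf3 was nearest to Methig1 (0.632), Hhip (0.729), Gli1 (0.746), Cys1 (0.746) and Smpx (0.747), while its own values varied about their mean by 2.19. Hhip binds hedgehog ligands and Gli1 is a transcription factor of the hedgehog pathway. Angptl7 was nearest to Odf3b (0.725), Abca8a (0.728), Cys1 (0.730), the smooth muscle actin gene Actg2 (0.733) and Klk15 (0.764), against a variation of 2.12.

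Angptl2 was nearest to Igsf10 and Cped1 (both 0.231), Abi3bp (0.260), Asb2 (0.281) and the laminin gene Lamb2 (0.287), and Angptl1 to Rcan2 (0.344), Ogn (0.394), Cyp2j9 (0.428), E2f3 (0.445) and Shisal1 (0.454). C1qtnf1 was nearest to Macroh2a2 (0.192), C1qtnf2 to Fez1 (0.275) and C1qtnf7 to Scrn1 (0.163). Angptl4 had no close neighbour beside its own variation of 1.18, with Acta1 (0.638), Prom1 (0.693), Itgam of myeloid cells (0.697) and Fam43a (0.710) among the nearest. Among the 8 genes, C1qtnf2 and C1qtnf7 were the most alike (0.368), Angptl1 and Angptl2 lay at 0.513, C1qtnf3 and Angptl7 at 1.06, and Angptl4 and C1qtnf3 were the farthest apart (3.01).

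**Figure D4:**
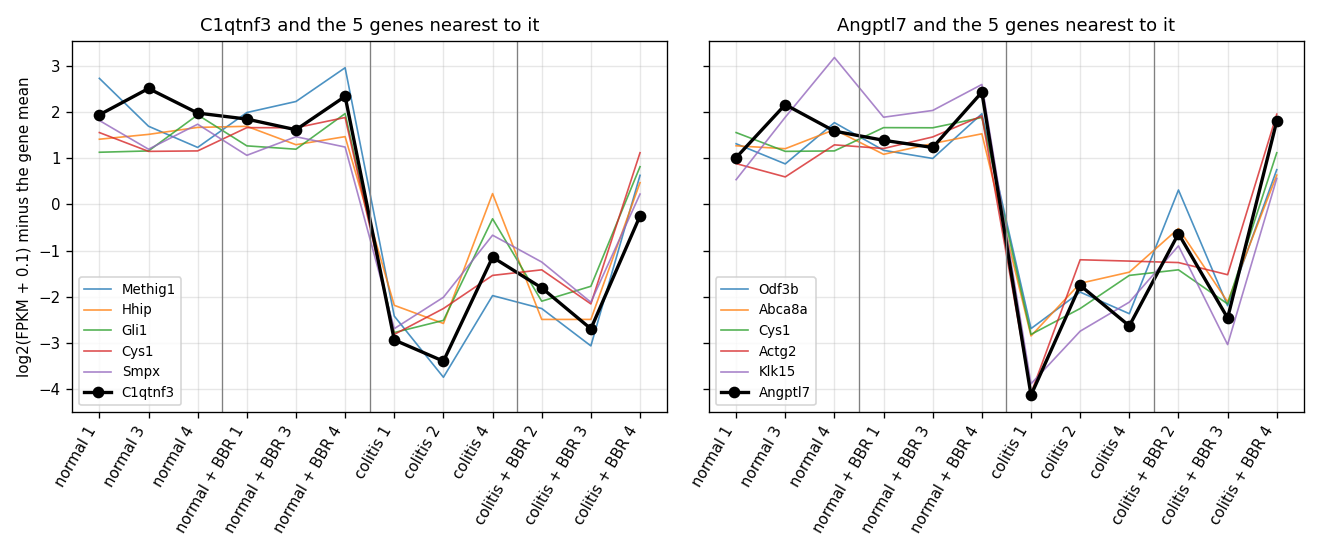
Values of C1qtnf3 (left) and Angptl7 (right), in black, and of the 5 genes nearest to each over the 12 mice, as log2(FPKM + 0.1) minus the mean of each gene. Lines only join the values of a gene and mark no order of mice. Both genes and their neighbours are lower in the colitis mice. In mouse 4 of the colitis mice receiving BBR, Angptl7 lies among the mice without DSS while C1qtnf3 lies below them.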

How the data were processed

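The authors extracted RNA from the rectum of 12 mice and sequenced it. Reads were cleaned by SOAPnuke and aligned by Bowtie2 2.2.5, and expression was estimated by RSEM 1.2.12, on build mm9 by the submitters' processing notes. The labels name the tissue colorectum, another library kit than the methods and, in the treatment tag, 7 days of BBR. The deposited table gives each gene in each mouse 1 value, taken as FPKM from the values, and TPM cannot be told apart from it. RSEM assigns reads that match several genes by estimate, and no use of strand is stated. Mice were grouped by the labels, and nothing else names them as replicates of separate cages or days.

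The values were transformed to log2(FPKM + 0.1), and limma 3.58.1 (R 4.3.3) was fitted to the 15315 genes whose mean reached 0.1, with all 12 mice, a mean for each group, a trend on mean expression and Benjamini-Hochberg adjustment over all genes. A fold change on this scale understates the change of low genes. Tables and figures were made in Python 3.11.15 with pandas 2.3.3, NumPy 2.4.6 and matplotlib 3.10.9. The fit was also run on simulated data, with an outcome not reported here. The simulation gave no single mouse a shift of its own. Depth was estimated from how low values are spaced in 2327 single-transcript genes. The spacing matched another shortening of transcript length in the mice numbered 4 (0 to 75 bases) than in the other mice (250 to 300 bases), so the worth of a read is an estimate.

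The 8 genes, the lists, the rule for named genes, the comparisons and the alternatives were chosen with earlier results of these data known. Named were the 8 genes, list genes past the adjusted limit or the 2 of a list with the largest change among those with a mean of at least 1, and the 5 genes nearest to each member. Angptl6 and the 3 host genes were named after their values were seen. Some genes that the rule names are not reported here. The replicate numbers were treated as pairing the normal mice with the normal mice receiving BBR in 1 alternative, since the deviations of same-numbered mice from their group means correlated at 0.29, 0.109 and 0.657 for mice 1, 3 and 4, all above 0.1. Mouse 1 of either group correlated more with mouse 3 of the other, at 0.366 and 0.456, so that only the mice numbered 4 correlated best with their own number. The other groups compared share 2 numbers. Alternatives were another pseudocount, filter or scaling, only the compared groups, no trend, blocks for the replicate number or for the mice numbered 4, only the mice numbered 1 to 3, leaving out each mouse, and Pearson r for likeness. Levels relative to marker sums, and list results and differences with BBR without mouse 4 of the colitis mice receiving BBR, were added after seeing the data.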

Additional observations from a re-analysis of the deposited data

How the results depend on the processing

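In colitis mice receiving BBR against normal mice receiving BBR, 0 of the 8 genes passed limma's adjusted limit as lower. The number was 1 with a pseudocount of 1, 3 with the mice numbered 4 as a block, 3 in the mice numbered 1 to 3 alone, and 0 to 5 when each mouse was left out in turn, with 5 without mouse 4 of the colitis mice receiving BBR. With the replicate number as a block it was 0, and 7 of the 8 had an unadjusted P of at most 0.05. No direction of the 8 genes turned in this comparison under any alternative run. In colitis mice against normal mice, where a count of 2 past the limit describes the choice of the genes, the number was 1 with a pseudocount of 1 or 0.01, a mean of at least 1, no filter or no trend, 4 with the 2 groups alone, the replicate block, the mice numbered 4 as a block or the mice numbered 1 to 3 alone, and 0 to 1 when each mouse was left out. The pairing changed no other call: with the replicate block 0 of the 8 were called in both comparisons of BBR.

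Small changes turned in direction. In colitis mice receiving BBR against colitis mice, C1qtnf7 was at −0.029 with the replicate block, and in the mice numbered 1 to 3 alone Angptl1 was at −0.40, C1qtnf2 at −0.13 and C1qtnf7 at −0.05. When each mouse was left out, Angptl1 ranged from −0.38 to 0.77, Angptl2 from −0.32 to 0.72, C1qtnf2 from −0.21 to 0.55 and C1qtnf7 from −0.12 to 0.21. In normal mice receiving BBR against normal mice, the mice numbered 1 to 3 alone gave 0.071 for Angptl2, −0.28 for Angptl7 and −0.047 for C1qtnf2. When each mouse was left out, Angptl1 ranged from −0.18 to 0.51, Angptl2 from −0.25 to 0.22, Angptl7 from −0.28 to 0.38, C1qtnf1 from −0.56 to 0.066, C1qtnf2 from −0.42 to 0.53 and C1qtnf7 from −0.043 to 0.63. The causes were not tested.

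Of the 5 genes nearest to each member, Pearson r named 0 of the same genes for Angptl1, 1 for Angptl4, 2 each for Angptl2, Angptl7, C1qtnf2 and C1qtnf3, and 3 each for C1qtnf1 and C1qtnf7. With 3 mice in a group and values of 1 to 5 reads for Angptl1, C1qtnf3 and Angptl7 in some mice with DSS, the size of their falls is bounded by depth.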
